A study of Mus musculus with 141 samples.

Results

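The nuclear genes for the respiratory chain and the ATP synthase were followed through 4 classes of sorted mouse lung epithelial cells. Members were the genes whose symbols start with Nduf, Uqcr, Cox4 to Cox8 or Atp5, together with *Sdha*, *Sdhb*, *Sdhc*, *Sdhd* and *Cyc1*, when at least 3 cells had a read. Of 17136 genes, 93 had such a symbol and 92 met the minimum of cells, and *Cox4i2*, with reads in 1 cell, did not. They comprised 79 subunits (36 of complex I, 4 of complex II, 9 of complex III, 15 of complex IV and 15 of complex V), 9 genes for assembly or coupling factors that share the prefixes, and 4 *Atp5* pseudogenes. In the GENCODE vM21 annotation of GRCm38, 91 members had a position, spread over 19 chromosomes, with the largest number, 9, on chromosome 7.

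All cells came from the lungs of 1 mouse of 4 months, labelled with the strain 129SV and with the genotype *ACID;R26tdTomato*. In this line Cre is made from the *Aqp5* locus and switches on the red reporter tdTomato for good in any cell that has used that locus and in its descendants, so the reporter marks a history and not a cell type. Lungs were digested with proteases, and single cells that were CD31- CD45- E-cadherin+ tdTomato+ were sorted and captured on a Fluidigm C1 chip, with no second condition. Every cell is labelled alveolar type 1, so classes were formed from defining genes.

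The respiratory chain sits in the inner mitochondrial membrane. Complex I takes electrons from NADH and complex II takes them from succinate, complex III passes them to cytochrome c, complex IV hands them to oxygen, and complex V uses the proton gradient that complexes I, III and IV build to make ATP. Complex II is encoded wholly in the nucleus, while the other complexes combine nuclear subunits with a few encoded in mitochondrial DNA. In the lung, alveolar type 1 cells are the thin cells of gas exchange, type 2 cells make surfactant, and ciliated cells spend ATP on beating cilia.

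Of the captured cells 92 passed the quality limits and 49 did not (more than 90000 reads, more than 500 genes and a mitochondrial share below 0.15). With levels in CPM, the reads of a gene in a cell or class scaled to 1000000 counted reads, 45 type 1 cells had *Ager* at 5000 CPM or more, 11 type 2 cells had *Sftpc* at 8000 CPM or more, and 13 ciliated cells had at least 3 of 6 ciliary genes above 100 CPM. The other 23 kept cells formed the remaining class. No cell met 2 of the rules, and the nearest cells to the limits had 1402 and 9335 CPM of *Ager* and 7774 and 25437 CPM of *Sftpc*. Marker lists matched the names, with 24858 CPM of type 1 genes in type 1 cells, 69843 CPM of type 2 genes in type 2 cells and 9923 CPM of ciliary genes in ciliated cells. The remaining class was a mixture, with 199659 CPM of club genes, 2172 CPM of basal genes, 3652 CPM of type 2 genes and 263 CPM of fibroblast genes, the last between 0 and 2237 CPM in single cells. One ciliated cell held 395907 CPM of club genes against a median of 5638 CPM in its class. Only 2 of 7 listed macrophage genes and 2 of 5 listed red cell genes were in the matrix. Of the macrophage genes *Csf1r* was at 348 CPM in type 1 cells and *Ptprc* was at 0 in every class, and the 2 red cell genes had no read. Genes that define a class also had reads outside it: all 45 type 1 cells had a *Sftpc* read, at a median of 97.6 CPM, so that a few reads of a member in a cell are not taken here as expression. Median depth was 468718 reads in type 1, 413806 in type 2, 526381 in ciliated and 807641 in the remaining cells, and the median mitochondrial share was 10.2%, 9.41%, 7.16% and 7.91%. Because the cells are 1 sample, no test between classes was made, and the intervals given are 95% intervals for counting error only.

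Genes of the chain are spread over the genome, and many are textbook targets of NRF1, of ETS-family factors such as GABP, and of YY1. Promoter sequences of RefSeq (GRCm38.p6, 250 bases before to 50 after each start) were found for 74 of the 92 members, 3 of which the files list under an older symbol. The NRF1 motif GCGCANGCG, read on both strands, was present in 22 of 74 members (29.7%, exact interval 19.7% to 41.5%), against 7.03% of 27025 genes with a promoter sequence and 17.2% of the 6194 among them that passed the expression minimum used below. The ETS motif CCGGAAG was present in 17 members (23%), against 9.93% of all promoters and 21.7% of those of the expressed genes. The YY1 motif AAGATGG was present in 12 members (16.2%), against 7.28% and 9.22%. A match describes the letters and not a bound site, and 31 of the 74 members had none of the 3 motifs in this window. The 150 bases before the start are shown for 3 members with NRF1 matches, *Cox6a1* and the complex II genes *Sdha* and *Sdhd*. Among complex IV genes that passed the expression minimum, *Cox6a1* had the lowest ratio of the remaining class to type 1 cells. They are also shown for *Cox7a2l*, *Ndufa12* and *Uqcr10*, whose values in single cells are given later and which had no match. Each is written 5' to 3' in the direction of transcription, with NRF1 and ETS matches of either strand in capitals. *Cox6a1* lies at chr5:115348959-115349108 (minus strand), *Sdha* at chr13:74350241-74350390 (minus), *Sdhd* at chr9:50603850-50603999 (minus), *Cox7a2l* at chr17:83514334-83514483 (minus), *Ndufa12* at chr10:94198885-94199034 (plus) and *Uqcr10* at chr11:4704345-4704494 (minus).
Cox6a1: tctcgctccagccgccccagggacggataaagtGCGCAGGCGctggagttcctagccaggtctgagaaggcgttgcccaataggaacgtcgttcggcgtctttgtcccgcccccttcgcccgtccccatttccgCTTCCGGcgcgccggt
Sdha: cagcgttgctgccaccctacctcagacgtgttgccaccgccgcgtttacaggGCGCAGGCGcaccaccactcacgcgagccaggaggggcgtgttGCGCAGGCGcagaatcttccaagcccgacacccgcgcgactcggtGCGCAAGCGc
Sdhd: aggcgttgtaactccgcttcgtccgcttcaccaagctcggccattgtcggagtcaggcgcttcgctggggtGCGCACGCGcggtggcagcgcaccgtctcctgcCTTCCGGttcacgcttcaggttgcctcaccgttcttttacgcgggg
Cox7a2l: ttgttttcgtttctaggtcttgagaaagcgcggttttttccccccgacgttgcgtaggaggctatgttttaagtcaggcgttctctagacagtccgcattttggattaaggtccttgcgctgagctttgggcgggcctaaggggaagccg
Ndufa12: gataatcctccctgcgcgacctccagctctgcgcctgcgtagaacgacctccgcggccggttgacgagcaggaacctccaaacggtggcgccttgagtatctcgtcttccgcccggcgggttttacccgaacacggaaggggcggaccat
Uqcr10: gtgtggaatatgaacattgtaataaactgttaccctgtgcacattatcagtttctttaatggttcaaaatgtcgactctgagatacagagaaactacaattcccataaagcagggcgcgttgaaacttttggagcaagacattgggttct
The *Cox7a2l* and *Ndufa12* stretches lie inside the longer GENCODE genes, since the 2 annotations place their starts differently.

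Ciliated cells carried the most reads of the respiratory chain. The 92 members summed to 20340 CPM in ciliated cells (95% interval 20239 to 20442), 15787 CPM in type 1 cells (15736 to 15839), 14609 CPM in the remaining cells and 13660 CPM in type 2 cells, which is between 1.37% and 2.03% of all reads. Against type 1 cells the log2 ratio was 0.37 (0.36 to 0.37) in ciliated, -0.11 in the remaining and -0.21 in type 2 cells. The ciliated ratio stayed above 0 under all 16 other settings that gave a sum, at 0.18 to 0.51, while the type 2 ratio turned positive under 4 of 16 and the remaining class under 2 of 16, among them TMM scaling, so that no order of these 2 classes against type 1 is given. Single cells spread far more widely than the counting intervals. The lowest, median and highest type 1 cells had 1981, 16210 and 31962 CPM, a 16.1-fold range. The type 2 cells had 5992, 13639 and 22104 CPM, the ciliated cells 8862, 20171 and 31983 CPM and the remaining cells 4648, 13629 and 27320 CPM. All 4 ranges overlapped, and 8 of 13 ciliated, 2 of 11 type 2 and 8 of 23 remaining cells lay above the type 1 median. As a share of non-mitochondrial reads the medians were 1.81% in type 1, 1.59% in type 2, 2.22% in ciliated and 1.45% in the remaining cells. With every cell thinned to 90000 reads, a median of 32 members had a read in type 1, 36 in type 2, 36 in ciliated and 42 in the remaining cells, while all genes detected at that depth had medians of 1860, 2178, 2181 and 2205.

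**Figure D1:**
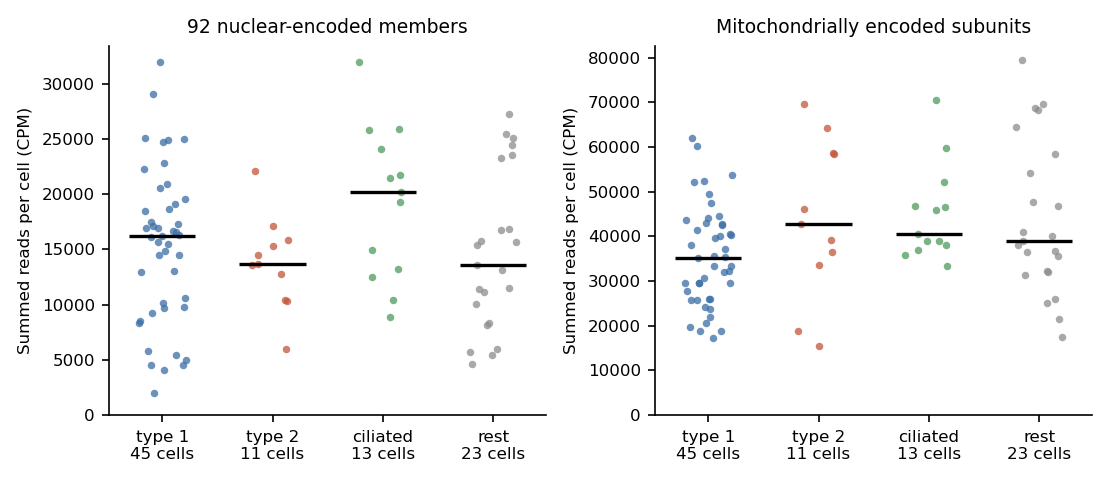
Summed CPM per cell (linear axes) of the 92 nuclear-encoded members, left, and of the 13 mitochondrially encoded subunits, right, with 1 point per kept cell and a bar at the class median. The ciliated median of the nuclear members, 20171 CPM, is the highest, and the ranges of all classes overlap in both panels.

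Mitochondrially encoded subunits, which are not members, followed another order. They took 34486 CPM in type 1 cells, 44887 CPM in type 2, 42445 CPM in ciliated and 43777 CPM in the remaining cells, and 12 of 13 ciliated, 8 of 11 type 2 and 16 of 23 remaining cells lay above the type 1 median of 35223 CPM. Within type 1 cells the nuclear sum and the mitochondrial sum had a Spearman correlation of -0.22 over 45 cells, and within the remaining cells -0.60 over 23 cells. Both sums are shares of the same libraries, and the part of this in the correlations was not tested. The mitochondrial share also set which cells were kept: the 19 type 1 cells left out for it had 11157 CPM of the members, and 13891 CPM of non-mitochondrial reads against 17633 CPM in the kept cells. The left-out type 2, ciliated and remaining cells (16, 2 and 12) had 8717, 14539 and 8180 CPM. Those values were below the kept cells of their own class in each case.

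Fewer members than genes at large lay past a 2-fold difference between classes. Among the 86 members with a mean of at least 10 CPM over the classes, 5 (5.81%) were at least 2-fold higher and 27 (31.4%) at least 2-fold lower in type 2 than in type 1 cells, where the same limits took in 25.5% and 47% of all genes compared. In ciliated cells 20 members (23.3%) were higher and 20 (23.3%) lower, against 31.4% and 38.1% of all genes. In the remaining cells 5 (5.81%) were higher and 16 (18.6%) lower, against 28.1% and 39.1%. The median log2 ratio of the members was -0.27, 0.22 and -0.01 in these comparisons, and that of all genes was -0.74, -0.13 and -0.35. In no direction was the share of members above that of all genes. Whether coverage sets this was not tested.

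**Figure D2:**
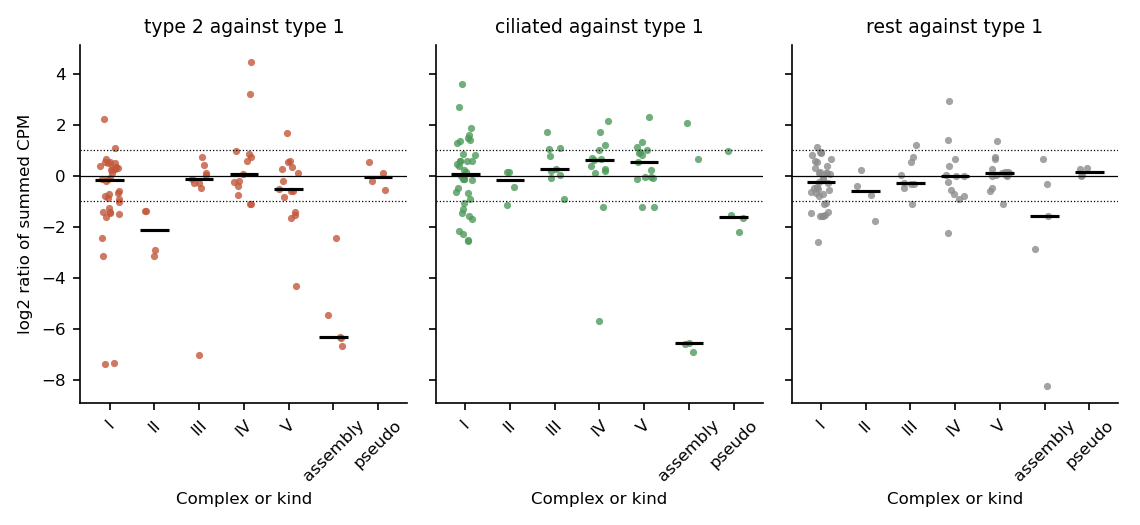
Log2 ratio of summed CPM against type 1 cells for each of the 86 members that passed the minimum, by complex (subunits I to V), assembly factors and pseudogenes, with a bar at the median and dotted lines at 2-fold. Most subunits lie between the dotted lines, *Cox7a2l* stands highest in type 2 cells at 4.48, and points below -5 are genes with 0 to 8 reads in the class.

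Complex I was the largest contributor. With the 7 *Ndufaf* assembly factors it summed to 6153 CPM in type 1, 5118 CPM in type 2, 7286 CPM in ciliated and 5388 CPM in the remaining cells, with median cells at 5020, 4352, 6995 and 4385 CPM. The ciliated ratio was 0.24 with the assembly factors and 0.22 for the 36 subunits alone. Single subunits went both ways in ciliated cells: 8 of 36 were at least 2-fold higher than in type 1 and 9 were lower, both smaller shares than the 31.4% and 38.1% of all genes. *Ndufa12*, an accessory subunit of the peripheral arm, was the highest at a log2 ratio of 3.62, followed by *Ndufa2* at 2.70 and the membrane-arm subunit *Ndufb5* at 1.88. *Ndufa9*, an accessory subunit near the quinone site, was lower at -2.54, with 15 CPM against 87 CPM, and *Ndufa10* was lower at -2.15. *Ndufa2* had 790 CPM in ciliated cells, from 7 of 13 cells of which one held 48.3% of the reads, and 121.6 CPM in type 1 cells, from 17 of 45 cells. *Ndufb5* was also higher in type 2 cells, at 2.22, with 218 CPM from 7 of 11 cells.

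Coverage of the catalytic core of complex I was uneven. *Ndufv2*, an iron-sulphur subunit, had reads in 35 of 45 type 1 cells, at 125.9 CPM, and *Ndufs7* and *Ndufs8* had 298 and 309 CPM from 20 and 21 of those cells. *Ndufs1*, the largest core subunit, had 24.9 CPM in type 1 cells from 13 of 45 cells and 1 read in all type 2 cells, a log2 ratio of -7.33 with an interval from -12.64 to -4.85. *Ndufs3*, another core subunit, had 77 CPM in type 1 and 3 reads in type 2 cells, at -7.38 (-9.66 to -5.83). *Ndufv1*, which binds NADH, had 71.1 CPM in type 1 and 152 CPM in type 2 cells, the latter from 4 of 11 cells. For *Ndufs1*, *Ndufs3* and *Ndufv1* the median cell of every class had 0 CPM, so their sums describe a minority of cells. In the remaining cells *Ndufc2* was lower at -2.61, with reads in 12 of 23 cells against 32 of 45 type 1 cells, and *Ndufa5* was higher at 1.12. The *Ndufa5* ratio was 1.51 within the left part of the chip (columns 1 to 10) and -0.31 within the right part (columns 11 to 20).

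Complex II was low and uneven. Its 4 subunits summed to 496 CPM in type 1, 159 CPM in type 2, 399 CPM in ciliated and 316 CPM in the remaining cells. All 4 were at least 2-fold lower in type 2 than in type 1 cells, as were 47% of all genes compared. *Sdha*, the flavoprotein that oxidises succinate, was at 253 against 98 CPM (log2 ratio -1.37), *Sdhb*, the iron-sulphur subunit, at 89.4 against 12 CPM (-2.89), *Sdhc*, a membrane anchor, at 38.6 against 4.32 CPM (-3.16) and *Sdhd*, the other anchor, at 115.04 against 44.6 CPM (-1.37). The median cell gave the opposite order, with 22.9 CPM in type 1 and 69 CPM in type 2 cells, and 8 of 11 type 2 cells lay above the type 1 median. In type 1 cells, 1 cell held 76.7% of the *Sdhd* reads and 1 cell 44.6% of the *Sdha* reads. Without the top cells the *Sdhd* ratio was -0.77, within 2-fold, and on the left of the chip it turned to 1.77, where that of *Sdhc* was -0.65. The ratios of *Sdha* and *Sdhb* were past 2-fold without the top cells and on both parts of the chip. In ciliated and remaining cells the median cell had 185 and 232 CPM, so that type 1 was the lowest class by its median cell and the highest by its sum.

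Complex III showed the largest ciliated difference of the 5 complexes. Its 9 subunits summed to 3364 CPM in ciliated cells against 1985 CPM in type 1, 1864 CPM in type 2 and 2296 CPM in the remaining cells, a log2 ratio of 0.76 (0.74 to 0.78) against type 1. The lowest, median and highest ciliated cells had 359, 3544 and 5091 CPM, and type 1 cells 0, 1829 and 8014 CPM. Of 13 ciliated cells, 10 lay above the type 1 median, and the ratio stayed between 0.54 and 0.96 under the 16 other settings. The small subunits *Uqcr10* and *Uqcrq* carried much of the sum. *Uqcrq* had reads in 13 of 13 ciliated cells, with a median of 408 CPM, and in 26 of 45 type 1 cells, with a median of 1.68 CPM, and its class values were 752 and 349 CPM. Its ratio was 0.05 on the left of the chip and 2.09 on the right. *Cyc1*, cytochrome c1, was higher in ciliated cells at 1.73, but in 4 of 13 cells, with 0.99 after the top cells were left out and -0.55 on the right of the chip. The core proteins *Uqcrc1* (64.7, 69.2, 61.4 and 66.5 CPM in type 1, type 2, ciliated and remaining cells) and *Uqcrc2* (81.5, 67.3, 99.3 and 66.4 CPM) were close to level. *Uqcrfs1*, the Rieske iron-sulphur protein, had 80.2 CPM in type 1 cells and 4 reads from 1 cell in type 2 cells (-7.02, interval -8.90 to -5.66).

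**Figure D3:**
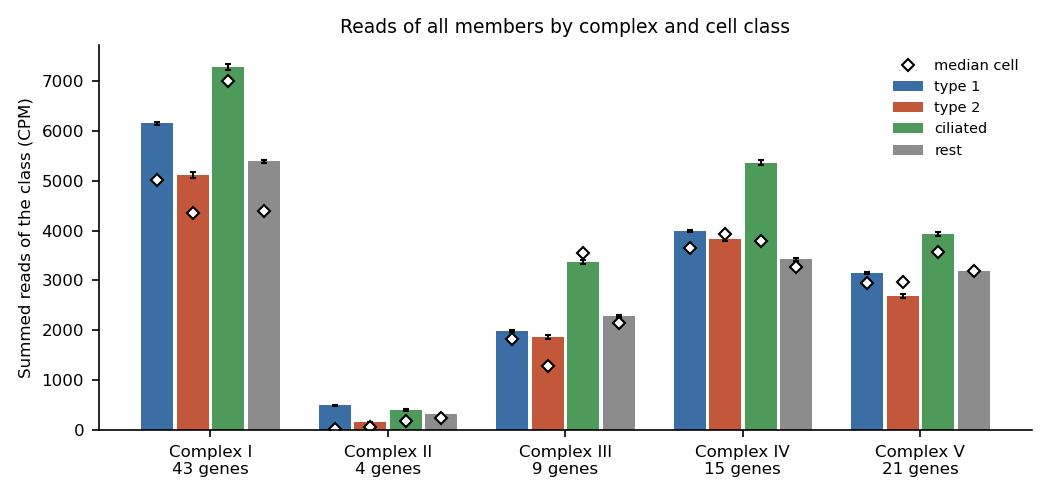
Summed CPM of all members of each complex in the 4 classes (bars from 0, with 95% counting intervals) and the median cell of the class (diamonds), on a linear axis. By their symbols, the *Ndufaf* assembly factors are counted with complex I, and *Atp5s*, *Atp5sl* and the pseudogenes with complex V. Ciliated bars are the highest for every complex but II.

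*Uqcr10* had an all-or-little pattern in single cells. In type 1 cells 31 of 45 had a read, with a lowest, median and highest cell of 0, 6.87 and 3866 CPM. Type 2 cells had 0, 11.5 and 1768 CPM, ciliated cells 0, 864 and 1418 CPM and remaining cells 0, 946 and 2974 CPM. The median ciliated and remaining cells thus lay far above the median type 1 cell. The class values were 429 CPM in type 1, 437 CPM in type 2, 901 CPM in ciliated and 983 CPM in the remaining cells, with log2 ratios of 1.07 in ciliated and 1.20 in the remaining cells that were 1.19 and 1.27 without the top cells. The ciliated ratio was 1.38 on the left of the chip and 0.75 on the right, and the remaining-cell ratio 1.58 and 0.42. *Uqcr10* was also the member most like the others within type 1 cells, with a Spearman correlation of 0.60 over 45 cells between its CPM and the sum of the other members.

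Complex IV summed to 3997 CPM in type 1, 3836 CPM in type 2, 5360 CPM in ciliated and 3427 CPM in the remaining cells. *Cox4i1*, the regulatory subunit made in most tissues, was the best covered, with 1190 CPM in type 1 from 37 of 45 cells, 550 CPM in type 2, 1369 CPM in ciliated and 1179 CPM in the remaining cells, where all 23 cells had reads. *Cox6b1*, which joins the 2 monomers of the enzyme, had reads in 44 of 45 type 1 cells and in all 11 type 2 cells, at 866 and 656 CPM. *Cox6c*, a membrane subunit, was close to 2-fold higher in type 2 (0.98, 460 CPM) and ciliated cells (1.03, 475 CPM) than in type 1 (233 CPM), and its median cells were 358 and 522 against 55.4 CPM, but the ciliated ratio was 0.27 on the left of the chip and 0.90 without the top cells. *Cox5b*, a zinc-binding subunit, was higher in ciliated cells at 2.17, with 325 against 71.9 CPM, by 0.44 on the left of the chip and by 2.66 on the right. *Cox5a* was higher in the remaining cells at 1.42, with 99.4 against 37.1 CPM, and at 0.94 on the right of the chip.

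*Cox7a2l* in type 2 cells had the highest ratio to type 1 cells among the members that passed the expression minimum. Some lower members lay further from type 1, such as *Ndufs3* at -7.38 and *Uqcrfs1* at -7.02, with only a few type 2 reads. The product of *Cox7a2l*, also called SCAF1, joins complex III to complex IV in supercomplexes. In type 1 cells the lowest, median and highest values were 0, 1.18 and 651 CPM, with reads in 23 of 45 cells, and in 7 after thinning to 90000 reads. In type 2 cells they were 0, 269 and 1101 CPM, with reads in 8 of 11 cells before and after thinning. The remaining cells had 0, 1.03 and 1301 CPM with reads in 14 of 23 cells, and the ciliated cells 0, 0 and 359 CPM with reads in 4 of 13. Of the type 2 cells, 6 lay at 269 CPM or above, 2 at 26.2 and 29 CPM and 3 at 0, while 3 type 1 cells lay between 255 and 651 CPM and the others at 26.7 CPM or below, so that the classes overlapped. The class values of 606 CPM in type 2 and 27.1 CPM in type 1 gave a log2 ratio of 4.48 (4.36 to 4.61), which was 5.0 without the top cell of both classes, 4.73 on the left of the chip and 4.28 on the right. In the remaining cells, at 205 CPM, the ratio was 2.92, and 3.16 and 1.93 in the 2 parts of the chip. In ciliated cells, at 44.4 CPM, it was 0.71 and turned to -0.53 without the top cells. The gene lies at chr17:83501918-83517330 on the minus strand.

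*Ndufa12* had the highest ciliated ratio of the subunits. In ciliated cells the lowest, median and highest values were 0, 142 and 536 CPM, with reads in 10 of 13 cells. In type 1 cells they were 0, 0 and 499 CPM, with reads in 7 of 45 cells, in 2 after thinning, and with 81.3% of the reads from 1 cell. The class values of 232 and 18.9 CPM gave 3.62 (3.46 to 3.77), and 5.58 without the top cells, with 2.46 and 10.40 in the 2 parts of the chip, the second against 2 reading cells of type 1. Type 2 cells had 23.5 CPM from 5 of 11 cells and the remaining cells 35.4 CPM from 11 of 23. The gene lies at chr10:94198720-94221443 on the plus strand.

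*Cox6a1*, the subunit VIa form made in most tissues, had the opposite order to *Uqcr10* and *Cox7a2l* in the remaining cells. It had 347 CPM in type 1, 208 CPM in type 2, 150 CPM in ciliated and 72.5 CPM in the remaining cells. The lowest, median and highest type 1 cells had 0, 172 and 1904 CPM, with reads in 37 of 45 cells, and the remaining cells 0, 2.11 and 451 CPM, with reads in 15 of 23. The ratio in the remaining cells was -2.26 (-2.34 to -2.18), with -2.13 and -2.40 in the 2 parts of the chip and -2.43 without the top cells. In ciliated cells it was -1.21 by sums, but their median cell, at 189 CPM, was level with the type 1 median. The gene lies at chr5:115345642-115348981 on the minus strand.

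**Figure D4:**
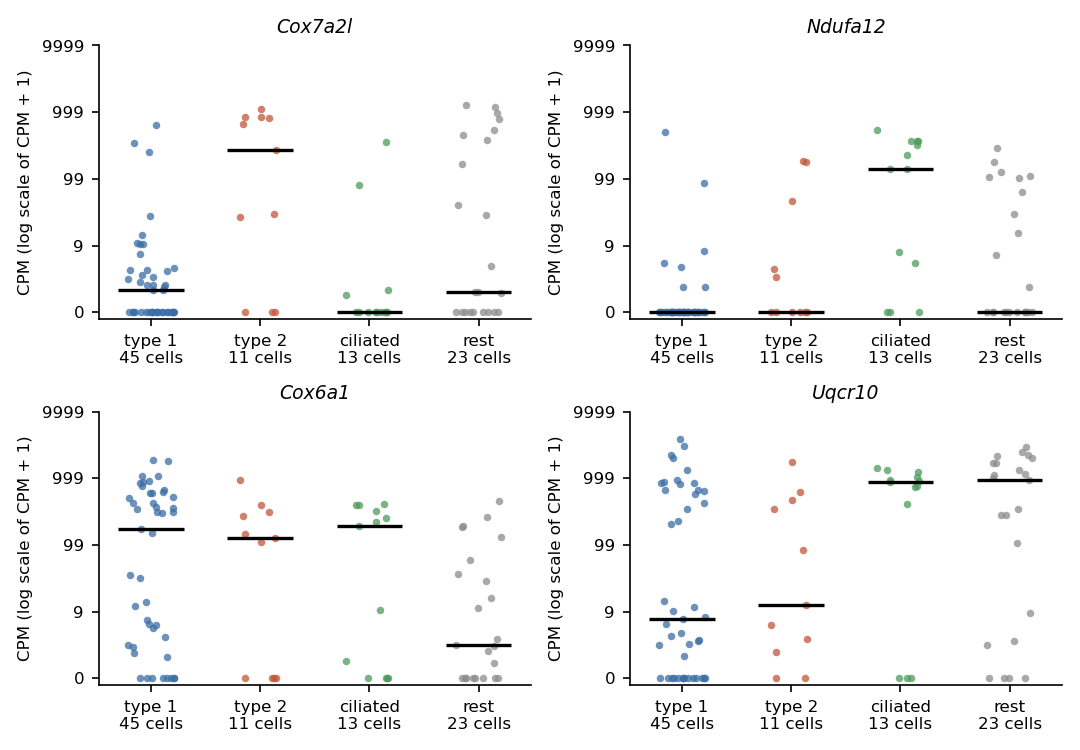
CPM of *Cox7a2l*, *Ndufa12*, *Cox6a1* and *Uqcr10* in each kept cell, on a log scale of CPM + 1, with a bar at the class median. The median is 269 CPM for *Cox7a2l* in type 2 cells, 142 CPM for *Ndufa12* in ciliated cells and 172 CPM for *Cox6a1* in type 1 cells. For *Uqcr10* it is 864 CPM in ciliated and 946 CPM in remaining cells.

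Most tissue-restricted isoforms were at low levels or 0, with *Cox6a2* in type 2 cells as the exception. *Cox6a2*, the heart and skeletal muscle form of subunit VIa, had 192 CPM in type 2 cells from 4 of 11 cells, beside 208 CPM of the common form *Cox6a1* from 7 of 11, none in ciliated cells, and 20.5 CPM in type 1 cells, where 1 cell held 98.9% of the reads. The median type 2 cell had 0 CPM of *Cox6a2*, and on the left of the chip 1 type 2 cell held all 718 reads. Heart muscle genes (5 of 7 listed were in the matrix) summed to 26.9 CPM in type 2 cells, with single cells between 0 and 120.5 CPM and *Myl7*, *Myl4* and *Ryr2* at 0. They were at 9.38 CPM in type 1, 61.6 CPM in the remaining and 79.1 CPM in ciliated cells. The ciliated cells had no *Cox6a2* read, and the part of heart muscle RNA in the *Cox6a2* reads was not tested. *Cox7a1*, the muscle form of subunit VIIa, had 25.9 CPM in 7 of 45 type 1 cells and no read in the other classes, while *Cox7a2*, its counterpart in most tissues, had 344, 159, 530 and 352 CPM in type 1, type 2, ciliated and remaining cells. *Cox6b2*, a testis form, had 15.7 CPM in 2 of 23 remaining cells and at most 0.53 CPM elsewhere. *Cox4i2*, the lung form of subunit IV in textbooks, had 69 reads in 1 type 2 cell and none in any other kept cell. *Ndufa4*, a subunit of complex IV despite its name, had 449, 376, 535 and 259 CPM, and *Cox8a*, the common subunit VIII, 225, 193, 241 and 135.98 CPM. *Cox8b*, *Cox8c* and *Ndufa4l2* had no row in the count matrix.

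Complex V, the ATP synthase, summed to 3156 CPM in type 1, 2683 CPM in type 2, 3932 CPM in ciliated and 3183 CPM in the remaining cells. These sums include its pseudogenes, and *Atp5s* and *Atp5sl*, which were placed here by their symbols alone. *Atp5b*, the catalytic beta subunit, had 371 CPM in ciliated cells against 170 CPM in type 1 (1.13), with reads in 13 of 13 and 31 of 45 cells and medians of 251 and 47.9 CPM, and the ratio was 0.67 without the top cells. *Atp5a1*, the alpha subunit, had 415, 275, 400 and 449 CPM in type 1, type 2, ciliated and remaining cells, with median cells at 5.45, 68.9, 19.7 and 445 CPM. *Atp5c1*, the gamma subunit of the central stalk, was lower in type 2 (-1.40) and in the remaining cells (-1.09), but by -0.73 and -0.24 on the left of the chip, and the median remaining cell, at 2.76 CPM, was above the type 1 median of 0. The 3 genes for the membrane ring subunit c differed: *Atp5g2* was higher in ciliated (2.33) and remaining cells (1.36) than in type 1 cells, *Atp5g1* was lower in type 2 cells (-1.55), where 1 cell held 96.2% of its reads, and *Atp5g3* stayed within 2-fold in each comparison (0.28, 0.55 and -0.47). *Atp5g2* had 21.7 CPM in 8 of 45 type 1 cells, 108.5 CPM in 6 of 13 ciliated cells and 55.4 CPM in 14 of 23 remaining cells, and its ciliated ratio was 0.20 on the left of the chip. *Atp5j2*, a membrane subunit, was higher in type 2 cells at 1.69, with 426 against 132.4 CPM and one cell holding 52.8% of the type 2 reads, and the ratio was 0.37 on the right of the chip.

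The assembly and coupling factors among the members rested on few cells. Their 9 genes summed to 283 CPM in type 1, 13 CPM in type 2, 353 CPM in ciliated and 147 CPM in the remaining cells, and the top cell held 32.3%, 78.6%, 27.6% and 57.8% of those reads. *Ndufaf2*, a complex I assembly factor, had 876 type 1 reads of which 97.5% came from 1 cell and none in type 2 or ciliated cells, a log2 ratio of at most -6.59 in ciliated cells with the class at the limit of 3 reads, and at most -1.17 without the top cells. *Atp5s*, a coupling factor, had 47.5 CPM in 5 of 45 type 1 cells, 3 reads in type 2 cells and none in ciliated or remaining cells, which gave at most -6.91 and -8.27, and *Atp5sl* had 36.9 CPM in 6 type 1 cells and none in type 2 or ciliated cells. *Ndufaf3* went the other way in ciliated cells, with 253 CPM in 7 of 13 cells against 59.3 CPM in 13 of 45 (2.09, and 0.91 on the right of the chip). The 4 pseudogenes followed the genes they resemble: across 92 cells the Spearman correlation was 0.78 between *Atp5k* and *Atp5k-ps2*, which had 4541 and 4652 reads, and 0.89, 0.80 and 0.84 between *Atp5l* and *Atp5l2-ps*, *Atp5l-ps1* and *Atp5l-ps2*. Reads of near-identical copies can be split between them in counting, so the values of *Atp5k*, *Atp5l* and these pseudogenes are uncertain.

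Single cells set many of the gene values. Over the 86 members the top cell held a median of 24.3% of a gene's reads in type 1, 52% in type 2, 45.9% in ciliated and 33.2% in the remaining cells, and 47 members in type 2 and 33 in ciliated cells had more than 50% of their reads in 1 cell. Without the top cell of both classes, 4 of the 5 members higher and 25 of the 27 lower in type 2 cells were still past 2-fold, as were 15 of 20 and 19 of 20 in ciliated cells and 5 of 5 and 14 of 16 in the remaining cells. Past 2-fold without the top cells and in both parts of the chip were *Cox7a2l*, *Cox6a2* and *Ndufb5* among those higher in type 2, *Ndufa12*, *Ndufa2* and *Ndufb5* among those higher in ciliated, and *Cox7a2l* and *Atp5g2* among those higher in the remaining cells, together with 13, 11 and 7 lower members. Of the lower members, 7 of 27 in type 2, 6 of 20 in ciliated and 2 of 16 in the remaining cells were also lower by the median cell, most of the others having a median of 0 on the type 1 side. None of the counts in this paragraph was made over all genes, so they are not read as traits of the members.

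**Figure D5:**
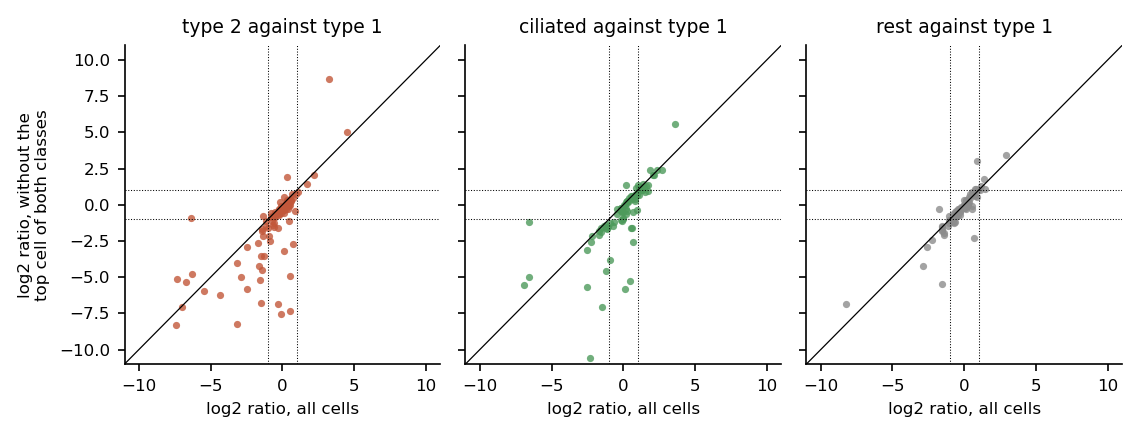
Log2 ratio of summed CPM against type 1 cells for each member over all cells of both classes (x axis) and without the cell with the most reads of that gene in each class (y axis), with the diagonal and dotted lines at 2-fold. Points far below the diagonal are genes whose type 2 or ciliated reads came mostly from 1 cell, and *Cox7a2l* and *Ndufa12* lie above it, at 5.0 in type 2 and 5.58 in ciliated cells.

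From cell to cell, most single members correlated weakly with the sum of the others. Within 45 type 1 cells, 78 of 86 members correlated above 0 with the sum of the others, at a median of 0.21, with *Uqcr10* (0.60), *Atp5d* (0.49) and *Ndufa11* (0.49) the most and *Cox5b* (-0.19), *Atp5s* (-0.14) and *Atp5g2* (-0.12) the least alike. Between complexes, the Spearman correlation over these cells was 0.53 for III with IV, 0.48 for I with III and 0.40 for I with IV, and between -0.14 and 0.04 for complex II with any other. In the 23 remaining cells it was 0.84 for I with IV, 0.69 for III with V and -0.21 for II with V. The member sum correlated at 0.44 with the number of genes detected in type 1 cells. The cells come from 1 mouse and 1 chip, and these values carry no test. Correlations of other genes with the member sum were not computed, so the values are not read as a trait of the members.

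Other genes of energy supply, not all of them mitochondrial, were read from lists beside the members. A list mainly of assembly factors outside the symbol rule, such as those for complex IV, summed to 5109 CPM in ciliated cells against 1691 CPM in type 1 (log2 ratio 1.6). Of its genes, 15 of 30 were at least 2-fold higher and 7 lower, and all 13 ciliated cells lay above the type 1 median. The list also held the ATP synthase subunit *Usmg5*, the inhibitor of that enzyme *Atpif1*, and *Lrpprc*, which stabilises mitochondrial messenger RNA. Their part in the sum was not separated. *Sco2*, which delivers copper to complex IV, had 351 CPM in 5 of 13 ciliated cells and 1 read in type 1 cells, and *Timmdc1*, an assembly factor of complex I, had 36.2 CPM in type 1 and no read in ciliated cells. Genes for nucleotide and phosphate exchange summed to 3792 CPM in ciliated and 1345 CPM in type 1 cells (1.5), with 9 of 14 higher and none lower, and all 13 ciliated cells above the type 1 median. Their list included *Ak7*, *Ak8* and *Nme5*, genes of cilia, and the class was itself chosen by ciliary genes. The sum without those genes was not made. The highest of the list were *Ak8*, an adenylate kinase of cilia, at 320 CPM in 8 of 13 cells and *Ckb*, brain creatine kinase, at 320 CPM in 7, while the ADP/ATP carrier *Slc25a4* had 266 against 513 CPM. The outer membrane channels *Vdac1* and *Vdac2* had 76.7 and 167 CPM in type 1 and 1.70 and 2.32 CPM in type 2 cells. Glycolysis genes were higher in ciliated cells as a sum (0.77, 11 of 13 cells above the type 1 median), with 7 of 17 higher and 3 lower, and *Pkm*, pyruvate kinase, was lower at 39.2 against 258 CPM. *Hk2*, a hexokinase, had 260 CPM in 7 of 11 type 2 cells and 109.4 CPM in 7 of 23 remaining cells against 0.26 CPM in type 1 cells. In the citric acid cycle the ciliated sum was 0.31 above type 1, with 5 of 20 genes higher and 9 lower, and *Sucla2*, a subunit of succinyl-CoA ligase, had 664 CPM in 8 of 13 ciliated cells against 50.3 CPM. In type 2 cells 4 of 20 were higher and 10 lower. Beside these list counts, 31.4% of all genes were higher and 38.1% lower in ciliated cells, and 25.5% and 47% in type 2 cells. Electron carriers and quinone synthesis genes were not raised as a sum in any class (-0.30, -0.09 and -0.39), and *Cycs*, cytochrome c, had 209 CPM in 22 of 45 type 1 cells and 1.70 CPM in type 2 cells. Regulators of mitochondrial biogenesis summed to 530, 527, 648 and 537 CPM in type 1, type 2, ciliated and remaining cells, *Tfam*, which packages mitochondrial DNA, had 22.1 CPM in type 1 cells and 1 read in the remaining cells, and *Ppargc1a*, a coactivator of the chain's genes, had no read in type 1 or type 2 cells.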

How the data were processed

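Cells of 1 mouse were sequenced on a Fluidigm C1 chip with paired reads and no molecular identifiers stated. After trimming (Trim Galore), the authors aligned the reads by HISAT2 against GRCm38 and assigned them to genes by featureCounts. The deposited values are unnormalised read counts for 17136 genes in 141 cells (91402 to 2170760 reads per cell). The strand setting is not given in the sources used here. The study states 92 analysed cells, the table holds 141 columns, and the stated filter (above 90000 reads, above 500 genes, mitochondrial share below 0.15) leaves 92. Capture sites were inspected under a microscope in the study, and a caller of doublets was not used here.

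Members, classes and gene lists were chosen with earlier results of these data known. Counts were summed per class and expressed as CPM. Ratios to type 1 cells are log2, with 95% exact Poisson or binomial counting intervals, and a class at 0 reads was set to 3 reads. Ratios between genes were called at 2-fold among genes with at least 10 CPM on average over classes. A second depth was obtained by thinning to 90000 reads. PCR reads are not independent molecules, so intervals cover counting error only. With 1 sample no test was made. Genes named are the 6 highest and 4 lowest members per comparison, core subunits and isoforms fixed in a list, the 3 most and 3 least alike in type 1 cells, and the 2 highest and 2 lowest genes of each further list, of which the text shows a part. Other members, and the 6 genes whose sequences are printed, were named after their values were seen. The NRF1 letters were shortened by 1 base after a first search. Scaling alternatives used TMM of edgeR 4.0.16 and the size factors of DESeq2 1.42.0 in R 4.3.3. Python 3.11.15 with numpy 2.4.6, pandas 2.3.3, scipy 1.17.1 and matplotlib 3.10.9 did the rest. The ratios were also run on simulated type 1 and ciliated cells with known folds and the spread of type 1 cells. The outcome of that simulation is not given here and no result rests on it. GENCODE vM21 and RefSeq gave positions and promoters, whose orientation was checked against transcript starts (69 of 73 members found on the printed strand, 0 on the other).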

Additional observations from a re-analysis of the deposited data

How the results depend on the processing

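Values are log2 ratios of the member sum to type 1 cells, in the order type 2, ciliated and remaining cells, unless named. Without the mitochondrial maximum they were -0.32, 0.46 and -0.10, and with a maximum of 0.10 they were -0.099, 0.35 and -0.031. Without mitochondrial genes in the library size the ciliated and remaining ratios were 0.32 and -0.14, and without the 20 most abundant genes as well the 3 ratios were 0.22, 0.41 and 0.20. TMM factors gave 0.062, 0.21 and 0.055, and median-of-ratios factors 0.18, 0.41 and -0.051. The median over all genes, -0.74, -0.13 and -0.35 here, moved to -0.45, -0.30 and -0.17 with TMM. Equal weight of cells gave -0.15, 0.33 and -0.059, and thinned reads -0.15, 0.34 and -0.066. Lower class limits gave -0.17 for type 2, higher limits -0.22, 0.35 and -0.14, and a minimum of 4 ciliary genes 0.41 and -0.12 for ciliated and remaining cells. Chip columns 1 to 10 gave 0.0045, 0.18 and -0.023, and columns 11 to 20 gave -0.39, 0.51 and -0.39. Without the top cell of each class the ratios were -0.15, 0.23 and -0.097. Structural subunits alone gave -0.19 and -0.10 for type 2 and remaining cells. Without the ciliated cell high in club genes, a setting chosen after seeing the data, the ciliated ratio was 0.45. Thus the ciliated sum was higher than type 1 in 16 of 16 settings, type 2 in 4 of 16 and the remaining cells in 2 of 16, and the cause of the sign changes was not tested. By complex the ciliated ratio was above 0 in 16 of 16 settings for complexes I, III and IV, in 15 for V (-0.11 to 0.55) and in 3 for II, and complex II was lower than type 1 in 16 of 16 settings in type 2 and in the remaining cells. All these settings used sums or means over cells, and by the median cell type 1 was the lowest class for complex II. Members at least 2-fold higher in type 2 cells numbered 17 with a mitochondrial maximum of 0.10, 12 without the abundant genes, 9 with TMM, 10 with median-of-ratios factors, 9 with equal weight, 10 with thinned reads, 19 and 12 in the parts of the chip, 8 without the top cells and 12 at 1.5-fold, against 5. In the remaining cells the higher members numbered 12 with the maximum of 0.10, 11 without the abundant genes, 8 with TMM, 13 and 15 in the parts of the chip and 15 at 1.5-fold, against 5, and the lower ones 31 in columns 11 to 20 and 25 at 1.5-fold, against 16. In ciliated cells 31 were higher at 1.5-fold, against 20. The shares of all genes past the same limits were not counted under these settings. The changes in these counts are therefore not read as traits of the members. *Ndufa5* in the remaining cells turned to -0.31 in columns 11 to 20. Counting cells of 2 classes in each was not run because no cell met 2 rules, and *Cox6a2* gave no ciliated ratio without the top cells, where both classes had at most a few reads. No paired analysis was possible because the cells form 1 sample. How far depth sets the medians of 0 CPM was not tested.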
